A study of Mus musculus with 2 samples.

Results

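Mrgprd neurons are trigeminal ganglion (TG) neurons that carry RNA of Mrgprd, the receptor gene by which nonpeptidergic nociceptors (NP1 in the naming of the study) are known. They were picked by their own counts of unique molecular identifiers (UMIs, each standing for 1 captured RNA molecule). Cells with at least 150 genes and at most 25% mitochondrial UMIs were kept, and a kept cell counted as a neuron with at least 5000 UMIs and at least 10 UMIs over Tubb3, Snap25 and Stmn2. A neuron was taken as a Mrgprd neuron with at least 3 Mrgprd UMIs that made up at least 100 UMIs per 1000000 of the cell (CPM), and with Mrgpra3 under 100 CPM. By this rule 236 of 1204 neurons, among 11378 deposited cell barcodes, were Mrgprd neurons, 171 of the control and 65 of the CFA library. Since measured values chose these cells, their Mrgprd level and every comparison with the neurons left out of the group are descriptions, without a test.

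The study profiled right TGs of male C57BL/6 mice aged 5 to 8 weeks by BD Rhapsody single-cell RNA-sequencing, 7 days after an injection into the right vibrissal pad. CFA mice received 20 μL of complete Freund's adjuvant in saline, which inflames the whisker skin, and control mice received saline by the methods of the study, although the sample label calls them untreated. Each condition had 1 library, and how many of the 6 mice per group entered a library was not given in the sources used here. With 1 library per condition there is no replicate check, so no p-value is given, and all brackets hold 95% intervals that cover counting error only.

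Nonpeptidergic nociceptors are unmyelinated sensory neurons that end in the outer layers of the skin and are known for their part in mechanical pain and in itch evoked by beta-alanine. They depend on GDNF family signals through Ret and its co-receptor Gfra2, bind the lectin IB4, and are shaped by the transcription factor Runx1. Peptidergic nociceptors, in contrast, use nerve growth factor and release CGRP and substance P, the products of Calca and Tac1.

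The control library held 48916096 UMIs in 7298 barcodes and the CFA library 22096268 UMIs in 4080 barcodes. After filtering, 6695 control cells and 3661 CFA cells were kept, of which 795 and 409 were neurons. Mrgprd neurons were deep cells, with a median of 69254 UMIs and 8488 genes for control and 61994 UMIs and 8161 genes for CFA. The other 624 control and 344 CFA neurons had medians of 40570 and 34201 UMIs. Summed over cells, the Mrgprd neurons held 11137563 control and 3921860 CFA UMIs, so the CFA values rest on fewer cells and fewer molecules. Of the barcode labels, 27 occurred in both libraries, among them the label of 1 Mrgprd neuron, and 0 labels were Mrgprd neurons in both. A Scrublet doublet score above 0.25 was found for 122 kept control cells (1.82%) and 25 kept CFA cells (0.683%), and for 0 Mrgprd neurons.

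Mrgprd itself, the value that chose the cells, ran from 161 over a median of 525 to 1836 CPM in the control cells, and from 109 over 517 to 1817 CPM in the CFA cells. The 4 cells just inside the limit had 109.2, 155.3, 161.1 and 165.9 CPM from 5, 8, 6 and 12 Mrgprd UMIs. Outside lay shallow control neurons with 1 or 2 Mrgprd UMIs, which the limit of 3 UMIs left out. The highest levels were 291.2 and 148.0 CPM among neurons with 2 UMIs and 177.5 CPM among those with 1. Few neurons were near the border. Of the other neurons, 874 had no Mrgprd UMI, 76 had 1, 14 had 2, 3 had 3 and 1 had 5. The limit on Mrgpra3 removed 0 neurons, and 6 control and 1 CFA Mrgprd neurons held a single Mrgpra3 UMI. RNA set free during dissociation leaves stray UMIs in all cells, and as a measure of it a Mrgprd UMI was seen in 69 of 5900 control cells (1.17%) and 22 of 3252 CFA cells (0.677%) outside the neuron rule, at median depths of 1307 and 1095 UMIs. Among other neurons the shares were 13.5% and 2.91%, at the higher depths given above.

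Mrgprd neurons made up 21.5% (18.7% to 24.5%) of the control neurons and 15.9% (12.5% to 19.8%) of the CFA neurons. Of all kept cells they were 2.55% (2.19% to 2.96%) and 1.78% (1.37% to 2.26%). The share was lower in the CFA library in both counts, and the intervals overlap in both. Mice, dissection, capture and treatment cannot be told apart here with 1 library for each condition.

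The 5 marker genes given for this cell type were all far above the other neurons in both libraries, so the cells carry the markers of their label. Prkcq, which encodes protein kinase C theta (chr2:11171905-11301226, GRCm38), had 217 CPM in control (209 to 226) and 186 CPM in CFA Mrgprd neurons (173 to 200), against 2.74 and 1.40 CPM in the other neurons. Lpar3, a receptor for lysophosphatidic acid (chr3:146220961-146286214), reached 544 CPM (531 to 558) and 551 CPM (528 to 574), against 22.7 and 14.6 CPM. Grik1, a kainate receptor subunit (chr16:87895901-88290863), had 848 CPM (831 to 866) and 836 CPM (808 to 865), against 60.3 and 59.9 CPM. Lpar3 and Grik1 were at like levels in both libraries, and for Prkcq the lower CFA level lay outside the counting interval of control. Agtr1a, the angiotensin II receptor type 1a (chr13:30336356-30382867), was lower in the CFA library, with 112 CPM in control (106 to 119) and 80.1 CPM in CFA Mrgprd neurons (71.5 to 89.4), against 6.82 and 2.72 CPM elsewhere among neurons. Mrgprd (chr7:145314835-145324059), the receptor for beta-alanine, stood at 534 CPM (521 to 548) and 491 CPM (469 to 513) when summed, against 3.76 and 1.17 CPM, a contrast that the rule itself created.

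Markers of other neurons bear on the label too. The 3 markers of Mrgpra3 neurons summed to 2.69 CPM in control and 2.29 CPM in CFA Mrgprd neurons, with Mrgprb4 at 0 in the CFA cells. Those of Sst and Nppb neurons summed to 2.42 and 3.31 CPM, and those of Trpm8 neurons to 1.17 and 0.510 CPM. Th and Slc17a8, markers of C-fibre low-threshold mechanoreceptors, were also near 0, but Tafa4 of the same list had 40.8 and 36.5 CPM, a lower level than the 67.4 and 80.3 CPM of the other neurons. Large A-fibre markers summed to 163 and 167 CPM in Mrgprd neurons and to 383 and 401 CPM in other neurons, most of it from Nefh, the heavy neurofilament. Nonpeptidergic describes a lower level of the peptide genes Calca, Tac1 and Adcyap1 than in other neurons here, not their absence. The 4 peptidergic markers (Tac1, Calca, Adcyap1 and Trpv1) summed to 1627 and 1395 CPM, against 13001 and 10844 CPM in other neurons. All 171 control and all 65 CFA Mrgprd neurons held UMIs of Calca, and at an equal depth of 5000 UMIs it was still seen in 93.57% (88.8% to 96.8%) and 90.77% (81.0% to 96.5%) of them, beside 89.74% and 76.45% of other neurons. At 1000 UMIs per cell it was seen in 56.73% (48.9% to 64.3%) and 50.77% (38.1% to 63.4%) of the Mrgprd neurons, from median depths of 69254 and 61994 UMIs, in 79.17% and 69.77% of the other neurons, and in 22.45% and 9.718% of cells outside the neuron rule, from median depths of 1674 and 1569 UMIs.

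At 5000 UMIs the other markers differed in how often they were caught. Grik1 was seen in 97.08% of control and 92.31% of CFA Mrgprd neurons, against 16.19% and 13.08% of other neurons. Lpar3 was seen in 88.30% and 81.54%, against 10.58% and 7.849%. Prkcq was seen in 73.10% and 64.62%, against 0.9615% and 0.5814%, and Agtr1a in 39.77% and 35.38%, against 2.564% and 0.2907%. At 1000 UMIs the shares of these 4 genes lay between 7.692% and 56.92% in Mrgprd neurons, and between 0.3257% and 2.280% in cells outside the neuron rule.

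**Figure D1:**
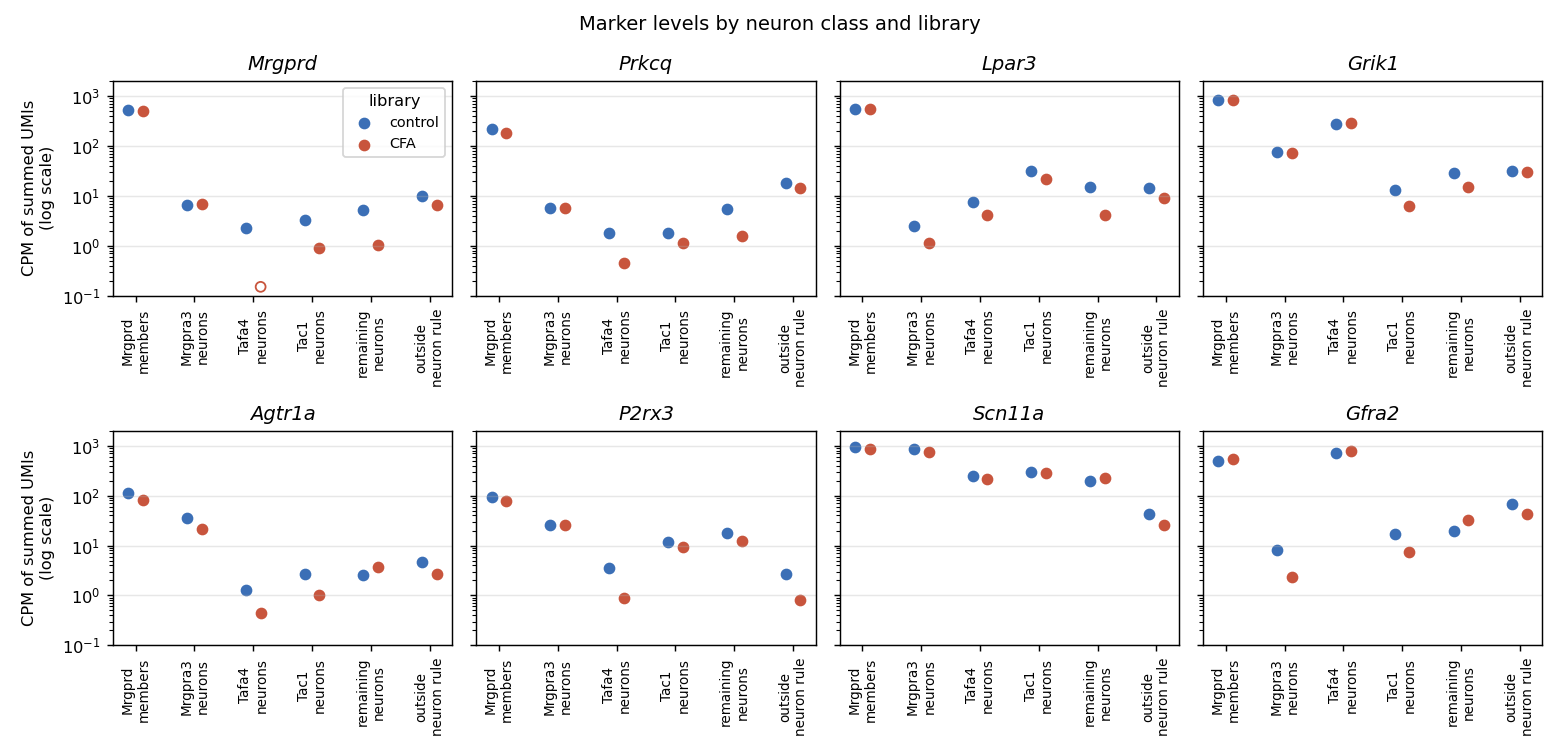
Level of 8 genes in each neuron class and in cells outside the neuron rule, as CPM of summed UMIs on a log axis, with 1 point for the control and 1 for the CFA library. Members are the Mrgprd neurons; the open point stands for 0 UMIs of Mrgprd in the CFA Tafa4 neurons, and only Gfra2 has a class (Tafa4 neurons, 730 and 785 CPM) above the members.

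Since the genes that lead this cell type differ together from the other neurons, the promoters of the leading genes are shown for Mrgprd and for Gm765, 1 of the 2 leading genes with a match to the core letters that RUNX factors such as Runx1 bind. These are TGTGGT, and on the opposite strand they read as ACCACA. The sequences are from RefSeq (GRCm38.p6), 250 bases before to 50 bases after the annotated start, 5′ to 3′ on the strand of the gene, with capitals for the match. Mrgprd lies at chr7:145314585-145314884 on the plus strand and Gm765 at chr6:98342705-98343004 on the minus strand.
Mrgprd: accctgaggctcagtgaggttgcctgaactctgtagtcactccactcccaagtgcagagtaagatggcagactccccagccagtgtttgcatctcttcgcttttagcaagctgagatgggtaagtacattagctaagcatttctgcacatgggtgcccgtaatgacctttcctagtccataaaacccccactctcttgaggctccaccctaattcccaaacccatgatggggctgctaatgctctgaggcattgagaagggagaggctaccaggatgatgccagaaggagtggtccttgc
Gm765: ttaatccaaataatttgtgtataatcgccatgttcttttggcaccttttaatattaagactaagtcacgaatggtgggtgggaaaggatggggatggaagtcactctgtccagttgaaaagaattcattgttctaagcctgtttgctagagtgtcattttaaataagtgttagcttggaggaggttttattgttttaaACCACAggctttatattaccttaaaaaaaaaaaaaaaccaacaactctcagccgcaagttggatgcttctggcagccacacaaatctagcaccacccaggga
The match in Gm765 lies 52 bases before the start, and the Mrgprd window holds none. Of the 9 leading genes with a promoter entry, 2 (Gm765 and Serpina11) hold the letters in at least 1 window. Of all 32851 promoter windows 5506 (16.8%) do. The first count is by gene and the second by window, and a gene can have more than 1 window, so they are not counted alike. A match of letters is a description and no evidence that the factor binds there.

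Across genes with at least 100 UMIs over all neurons of a library, 524 of 12158 genes (4.31%) were at least 2-fold higher in the control Mrgprd neurons than in the other neurons, and 1765 (14.5%) were at least 2-fold lower. In the CFA library 409 of 10442 genes (3.92%) were higher and 1336 (12.8%) lower. Both libraries gave much the same picture. Of the 10439 genes compared in both, 341 (3.27%) were higher and 1181 (11.3%) lower in both, and 0 genes passed the 2-fold limit in opposite directions. The log2 ratios of the libraries correlated with r = 0.955 across genes, which are not independent replicates. The median log2 ratio over all genes was -0.07 for control and -0.08 for CFA cells, and the list medians below are to be read beside these values. Likewise, list counts against other neurons are to be read beside the shares of all genes in each library.

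Genes with the highest ratio beyond the markers were of varied function. Hal, the enzyme that breaks down histidine, had 49.3 CPM in control and 43.1 CPM in CFA Mrgprd neurons, against 0.802 and 0.389 CPM in other neurons (log2 ratios of 5.94 and 6.79). Serpina11, of the serpin family, had 49.3 and 52.5 CPM, against 1.28 and 0.623 CPM. Barx2, a homeobox transcription factor, had 37.4 and 50.2 CPM, against 1.53 and 2.26 CPM. The serotonin receptor gene Htr4 reached 26.5 and 26.3 CPM, against 1.64 and 1.25 CPM. Sdc1, which encodes the cell surface proteoglycan syndecan-1, had 105 and 109 CPM, against 7.04 and 5.76 CPM. Gm765, a gene without a settled role, was found in all Mrgprd neurons, with 675 CPM in control (660 to 691) and 708 CPM in CFA (682 to 735), against 49.6 and 43.9 CPM. The remaining leading genes were 2010008C14Rik, Fam167a, Mlip and Otoa, with 21.5 to 54.8 CPM in Mrgprd neurons of either library. For all these genes the Mrgprd neurons were the higher class in both libraries against the Mrgpra3, Tafa4 and Tac1 neurons each.

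At the other end stood genes that were almost empty in Mrgprd neurons. Npy1r, the Y1 receptor of neuropeptide Y, had 3 UMIs in control and 2 UMIs in CFA Mrgprd neurons, or 0.269 and 0.510 CPM, against 93.5 and 123 CPM in other neurons. Kit, a receptor tyrosine kinase, had 1.17 and 0.765 CPM, against 97.8 and 136 CPM. Ptgir, the prostacyclin receptor, had 0.449 and 0.510 CPM, against 63.3 and 70.2 CPM. These 3 genes were highest in Tac1 neurons, where Npy1r had 143 and 189 CPM. The 15 lowest genes also held Mrgpra3 and Nppb, which mark other neuron classes, and C1ql4 and Ceacam10, which had 441 and 181 CPM in the control Tafa4 neurons. Gpr139, Dcdc2a, Gpr162, Islr2, Car8, Gpr26, Adcy2 and Vmn1r85 completed them, none above 1.26 CPM in Mrgprd neurons.

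**Figure D2:**
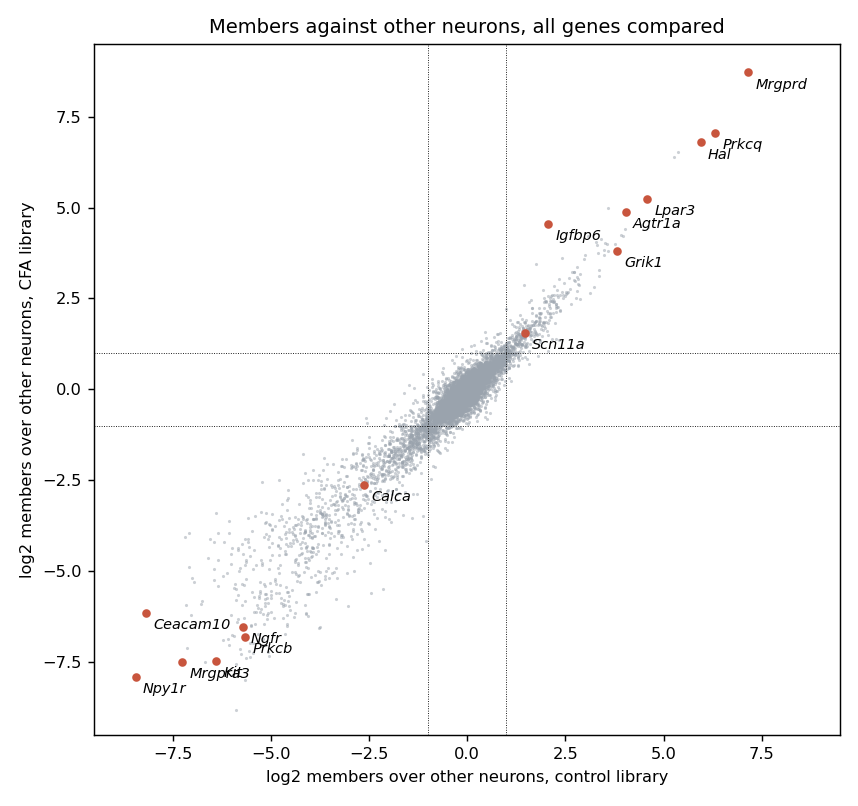
Log2 ratio of CPM in Mrgprd neurons (members) over other neurons for each of 10439 genes, control library on the x axis and CFA library on the y axis, with named genes in red and dotted lines at the 2-fold limits. The points follow the diagonal (r = 0.955) and 0 genes lie past opposite limits; Mrgprd is far up because it chose the cells, and Igfbp6 lies off the diagonal.

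Of the 9 listed GDNF and neurotrophin receptors 1 was at least 2-fold higher and 5 were at least 2-fold lower in each library, with median log2 ratios of -1.27 and -1.38, beside 4.31% higher and 14.5% lower of all genes in control and 3.92% and 12.8% in CFA. The higher one was Gfra2, the co-receptor of Ret for neurturin, with 502 CPM in control (489 to 516) and 538 CPM in CFA Mrgprd neurons (515 to 561), against 118 and 145 CPM in other neurons. Ret, the signalling receptor of the GDNF family, had 781 and 680 CPM, against 515 and 481 CPM, a ratio below 2-fold. Gfra3, the artemin co-receptor, had 17.1 and 27.0 CPM, against 356 and 308 CPM. Ngfr, the low-affinity neurotrophin receptor, had 8.35 and 5.35 CPM, against 437 and 496 CPM. Gfra2 was not particular to Mrgprd neurons, since the Tafa4 neurons had 730 and 785 CPM.

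Among Mas-related and other itch receptors, without Mrgprd, whose own level chose the cells, 4 of 16 compared genes (of 23 listed) were at least 2-fold higher and 8 lower in the control library, and 4 of 10 higher and 4 lower in the CFA library. The median log2 ratio was -1.05 for control and 0.00041 for CFA cells, where fewer genes had 100 UMIs. Beside the markers Lpar3 and Agtr1a, the higher genes were Ptger3 in both libraries, Mrgprb5 in the control library, and Mrgpra2b in the CFA library, where Mrgprb5 had too few UMIs to be compared. Mrgprb5, another Mas-related receptor, had 14.5 and 20.7 CPM, against 1.17 and 0.778 CPM. Ptger3, a receptor for prostaglandin E2, had 20.9 CPM in control, against 5.25 CPM, and 17.8 CPM in CFA, against 4.90 CPM. Mrgpra2a and Mrgpra2b are near copies whose reads may have been split, and their values are uncertain. The receptors Cysltr2, Hrh1 and Bdkrb2, for leukotrienes, histamine and bradykinin, were all below the level of other neurons in the control library, at 8.44, 0.808 and 0.359 CPM.

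Signalling through Gq and protein kinase C is the route of Mrgprd and of several receptors above. Of 27 compared genes (of 32 listed) 13 were at least 2-fold higher and 4 lower in the control library. Of 26 in the CFA library 14 were higher and 3 lower. The median log2 ratios were 0.95 and 1.26. Of all genes, 4.31% were higher and 14.5% lower in control, and 3.92% and 12.8% in CFA. Gnaq, the Gq alpha subunit, had 863 and 892 CPM in control and CFA Mrgprd neurons, against 318 and 358 CPM in other neurons. Plcb3, a phospholipase C that Gq activates, had 576 and 550 CPM, against 156 and 129 CPM. Prkca, protein kinase C alpha, had 755 CPM (739 to 771) and 870 CPM (841 to 899), against 158 and 171 CPM. The kinases of the family differed from one another. Prkcd had 861 and 728 CPM, against 346 and 293 CPM, and Prkce differed by less than 2-fold with 521 and 546 CPM, against 383 and 417 CPM. Prkcb lay the other way, with 2.15 CPM (1.38 to 3.21) and 1.02 CPM (0.278 to 2.61), against 108 and 115 CPM. Further higher genes were Gna14, Gnb4, Gng2, the diacylglycerol kinases Dgki and Dgkz, and the regulators Rgs7 and Rgs10, while Rgs2 and Itpr1, a receptor for inositol trisphosphate, were lower. Many of these were shared with the Mrgpra3 neurons, where Plcb3 had 559 and 502 CPM and Gna14 365 and 315 CPM.

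The ATP and adenosine list had 4 of 12 compared genes (of 19) at least 2-fold higher and 5 lower in the control library, and 4 of 11 higher and 4 lower in the CFA library, with medians of 0.42 and 0.40. P2rx3, the ATP-gated channel of nociceptors, had 91.9 CPM in control (86.4 to 97.7) and 78.5 CPM in CFA Mrgprd neurons (70.0 to 87.8), against 12.9 and 9.5 CPM. Acpp, an ectonucleotidase that makes adenosine, had 657 and 725 CPM, against 207 and 211 CPM, and Nt5e, with the same product, had 135 and 140 CPM, against 51.5 and 41.6 CPM. Adenosine kinase, Adk, which removes adenosine inside cells, had 640 and 602 CPM, against 261 and 254 CPM. P2ry1 was lower, at 24.1 and 15.8 CPM, against 99.9 and 109 CPM, and Tafa4 neurons had 611 and 580 CPM. The adenosine receptor Adora2a was also lower in both libraries, while Adora1 differed by less than 2-fold with 160 CPM in both libraries.

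TRP and mechanosensitive channels went both ways, with 4 of 20 compared (of 22) at least 2-fold higher and 8 lower in the control library, 5 higher and 7 lower in the CFA library, and medians of -0.18 and -0.28. Trpc6, a channel opened by diacylglycerol, had 62.2 and 67.1 CPM, against 7.95 and 5.60 CPM. Tmem63a, of a family of channels opened by stretch, had 52.3 and 40.5 CPM, against 13.8 and 13 CPM. The heat and capsaicin channel Trpv1 was low, at 40.1 CPM (36.5 to 44.0) and 35.2 CPM (29.6 to 41.6), against 366 and 330 CPM. Trpa1, the channel for irritants, had 171 and 164 CPM, against 343 and 253 CPM, which passed the 2-fold limit in the control library only, and the difference between the libraries was not tested. Piezo2, the main channel of touch, had 238 and 297 CPM, against 149 and 238 CPM, below 2-fold. The acid-sensing Asic3 had 2.33 and 1.27 CPM, against 97.3 and 89.0 CPM, and the cold channel Trpm8 had 0.359 and 0.255 CPM, against 20.8 and 21.4 CPM.

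The sodium channel list had 3 of 15 compared (of 16) at least 2-fold higher in each library, 8 lower with control and 10 with CFA cells, and medians of -1.39 and -1.16. Scn10a and Scn11a, the channels Nav1.8 and Nav1.9 of nociceptors, were among the 3. Scn10a had 604 CPM in control (590 to 619) and 478 CPM in CFA Mrgprd neurons (457 to 500), against 232 and 206 CPM. Scn11a had 966 CPM (947 to 984) and 876 CPM (847 to 906), against 351 and 297 CPM. Fxyd2, a regulator of the sodium pump, was the other higher gene, at 4114 and 4062 CPM, against 1743 and 1470 CPM. Scn9a, the channel Nav1.7, was alike in both groups of neurons, with 428 and 403 CPM, against 383 and 421 CPM. All 4 beta subunits, which tune the channels, were lower, for example Scn4b with 21.5 and 27.5 CPM, against 102 and 94.7 CPM.

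Of the potassium channels and their subunits, 10 of 39 compared genes (of 43) were at least 2-fold higher and 11 lower in the control library, and 9 of 38 higher and 12 lower in the CFA library, with medians of -0.34 and -0.26. Subunits that modify channels led the higher genes. Kcnab1, a beta subunit of Kv channels, had 219 and 199 CPM in control and CFA Mrgprd neurons, against 21.6 and 22.8 CPM. Kcnip2, which binds Kv4 channels, had 379 and 360 CPM, against 76.3 and 61.5 CPM, and its relative Kcnip4 had 675 and 623 CPM, against 167 and 118 CPM. Kcnt1, a channel gated by sodium, had 204 and 168 CPM, against 62.4 and 47.2 CPM. Kcnk3, a background channel, was nearly empty with 1.17 and 0.255 CPM, against 68.7 and 115 CPM. Of calcium, chloride and HCN channels 1 of 20 compared genes (of 22) was higher and 9 lower in the control library, and 1 of 18 higher and 8 lower in the CFA library (medians -0.69 and -0.84). The higher gene was Ano3, of the anoctamin family, at 746 and 676 CPM, against 120 and 132 CPM. Cacna1h, a T-type calcium channel, had 0.988 and 0.765 CPM, against 42.2 and 39.9 CPM.

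Glutamate receptors and transporters had 1 of 14 compared genes higher (Grik1) and 5 lower in the control library, and 1 of 11 higher and 4 lower in the CFA library, with medians of -0.62 and -0.80. Slc17a6, the vesicular glutamate transporter of most sensory neurons, had 345 and 398 CPM in Mrgprd neurons, against 461 and 584 CPM. The other vesicular transporters, Slc17a7 and Slc17a8, had at most 1.27 CPM. Opioid and cannabinoid genes were low, with 0 of 6 compared (of 10) higher and 5 lower in the control library, and 0 of 4 higher and 3 lower in the CFA library (medians -2.86 and -2.74). Oprm1, the mu opioid receptor, had 0.988 and 1.02 CPM, against 7.15 and 6.93 CPM, and Cnr1, the cannabinoid receptor, had 20.1 and 19.1 CPM, against 24.0 and 32.0 CPM.

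Neuropeptides and the proteins that process them were mostly lower, with 12 of 19 compared genes (of 21) at least 2-fold lower and 3 higher in each library, and medians of -1.85 and -1.82. Calca, for CGRP alpha, had 1166 CPM in control (1146 to 1187) and 958 CPM in CFA Mrgprd neurons (928 to 989), against 7229 and 5907 CPM. Tac1, for substance P, had 390 and 384 CPM, against 4310 and 3491 CPM, and Adcyap1, for PACAP, had 30.7 and 18.1 CPM, against 1095 and 1116 CPM. Other peptide genes were not low. Calcb, for CGRP beta, had 668 and 548 CPM, against 371 and 290 CPM, a ratio below 2-fold. Nmb, for neuromedin B, had 724 CPM (708 to 740) and 667 CPM (641 to 693), against 288 and 231 CPM. The granule protein gene Scg3 had 2460 and 2837 CPM, against 687 and 672 CPM, and the carboxypeptidase gene Cpe had 1388 and 1189 CPM, against 535 and 464 CPM, whereas Scg2 had 72.9 and 87.2 CPM, against 1162 and 1333 CPM.

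Of the surface and adhesion molecules, 15 of 32 compared for control and 15 of 31 for CFA were at least 2-fold higher, beside 11 and 10 lower, with medians of 0.51 and 0.27. Cd55, an inhibitor of complement, had 1914 CPM in control (1888 to 1940) and 1562 CPM in CFA Mrgprd neurons (1523 to 1602), against 293 and 195 CPM. Serping1, the C1 inhibitor, had 603 and 573 CPM, against 75.9 and 44.6 CPM. Cd24a, a small surface glycoprotein, had 4321 and 4051 CPM, against 1196 and 1040 CPM. Both inhibitors of complement were also found in Mrgpra3 neurons, Serping1 with 211 and 159 CPM there. Cd44, the hyaluronan receptor, had 802 and 862 CPM, against 187 and 199 CPM, and Cdh11, a cadherin, had 249 and 265 CPM, against 35.4 and 35.4 CPM. The semaphorin receptors were unlike each other. Plxnc1 had 596 and 496 CPM, against 190 and 135 CPM, while Plxna4 had 2.87 and 2.29 CPM, against 91.7 and 116 CPM, and Nrp1 had 0.988 and 0.510 CPM, against 54.3 and 72.2 CPM.

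Transcription factors of sensory neurons had 5 of 33 compared genes (of 38) at least 2-fold higher and 10 lower in the control library, and 3 of 31 higher and 11 lower in the CFA library, with medians of 0.13 and 0.06. Runx1, the factor that directs the nonpeptidergic fate, had 227 CPM in control (218 to 236) and 351 CPM in CFA Mrgprd neurons (333 to 370), against 120 and 207 CPM in other neurons, below 2-fold in both. The zinc finger gene Casz1 had 190 and 206 CPM, against 66.5 and 85.5 CPM, and the homeobox gene Pknox2 had 101 and 97.9 CPM, against 36.1 and 40.9 CPM. Shared factors of all sensory neurons were alike, among them Pou4f1 with 314 and 366 CPM, against 311 and 376 CPM, and Isl1 with 218 and 222 CPM, against 235 and 258 CPM. Zeb2, Ebf2 and Bcl11a were low, at most 4.85 CPM in either library.

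Cytokine receptors had 2 of 17 compared genes (of 24) at least 2-fold higher and 8 lower in the control library, and 1 of 17 higher and 9 lower in the CFA library (medians -0.96 and -1.17, the latter above 0 with cells thinned to 5000 UMIs). The genes at least 2-fold higher were subunits of interleukin 6 family receptors. Il6st was so in both libraries, with 474 and 455 CPM, against 199 and 191 CPM. Lifr was so in the control library, with 436 and 375 CPM, against 209 and 201 CPM. Osmr, which encodes a receptor subunit for oncostatin M, had 7.09 and 7.65 CPM, against 46.6 and 50.7 CPM. The nerve injury list had 1 of 11 compared genes (of 20) higher and 6 lower in the control library, and 1 and 5 in the CFA library (medians -1.38 and -0.79), with Gap43, a growth cone protein, at 76.2 and 99.4 CPM, against 1135 and 1169 CPM. Atf3, which injury switches on in axotomised neurons, had 190 and 159 CPM, against 179 and 192 CPM.

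Counts for lists of general cell functions are given next. Of all genes, 4.31% were higher and 14.5% lower in control, and 3.92% and 12.8% in CFA, and differences between the lists were not tested. Of 44 nuclear genes of oxidative phosphorylation, 0 passed the 2-fold limit in either library, with medians of -0.24 and -0.15. The mitochondrially encoded list also had 0 of 9 compared (of 13) past it, with medians of -0.29 and -0.36. Neuronal cytoskeleton genes had 0 of 14 higher and 4 lower in each library (medians -0.25 and -0.23), the lower ones being Nefh, Map2, Stmn1 and Gap43. Of 16 heat shock genes 1 was higher and 2 lower in each library (medians 0.03 and 0.05). Hmox1, which breaks down haem, was the higher one, with 151 and 114 CPM, against 24.7 and 16.7 CPM, and Hspb1 was among the lower, with 35.9 and 53.8 CPM, against 348 and 304 CPM. Immediate early genes, which activity and dissociation induce, had 1 of 20 compared (of 22) higher and 4 lower for control and 1 of 16 higher and 4 lower for CFA (medians -0.06 and -0.35). Interferon response genes had 1 of 31 compared (of 35) higher and 12 lower for control and 1 of 23 higher and 6 lower for CFA (medians -0.72 and -0.27), the higher one being Ifit2 with 55.4 and 58.1 CPM, against 22.6 and 19.0 CPM.

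Markers of non-neuronal cells were present at low levels, as in the other neurons. The 6 satellite glia markers summed to 263 CPM in control and 203 CPM in CFA Mrgprd neurons, against 396 and 311 CPM in other neurons, most of it from Glul, and none was at 0. The 6 markers of myelinating Schwann cells summed to 973 and 770 CPM, against 1011 and 823 CPM, most of it from Pmp22, which neurons also hold. Fibroblast markers summed to 106 and 93.3 CPM, against 179 and 141 CPM, led by Apod, and oligodendrocyte markers to 169 and 208 CPM, against 160 and 205 CPM. Endothelial markers reached 40.2 and 25.2 CPM, against 83.9 and 65.9 CPM, led by Pecam1. Immune cell markers reached 7.99 and 4.59 CPM, against 24.8 and 3.89 CPM, with 3 of 6 at 0 in CFA Mrgprd neurons, and erythroid markers 25 and 34.7 CPM, against 39.6 and 48.3 CPM, led by Hbb-bs. Hba-a1 and Hba-a2 are near copies and their split is uncertain. Of the compared genes in these 7 lists, 0 were at least 2-fold higher in Mrgprd neurons. The part of such RNA in the levels above was not tested.

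**Figure D3:**
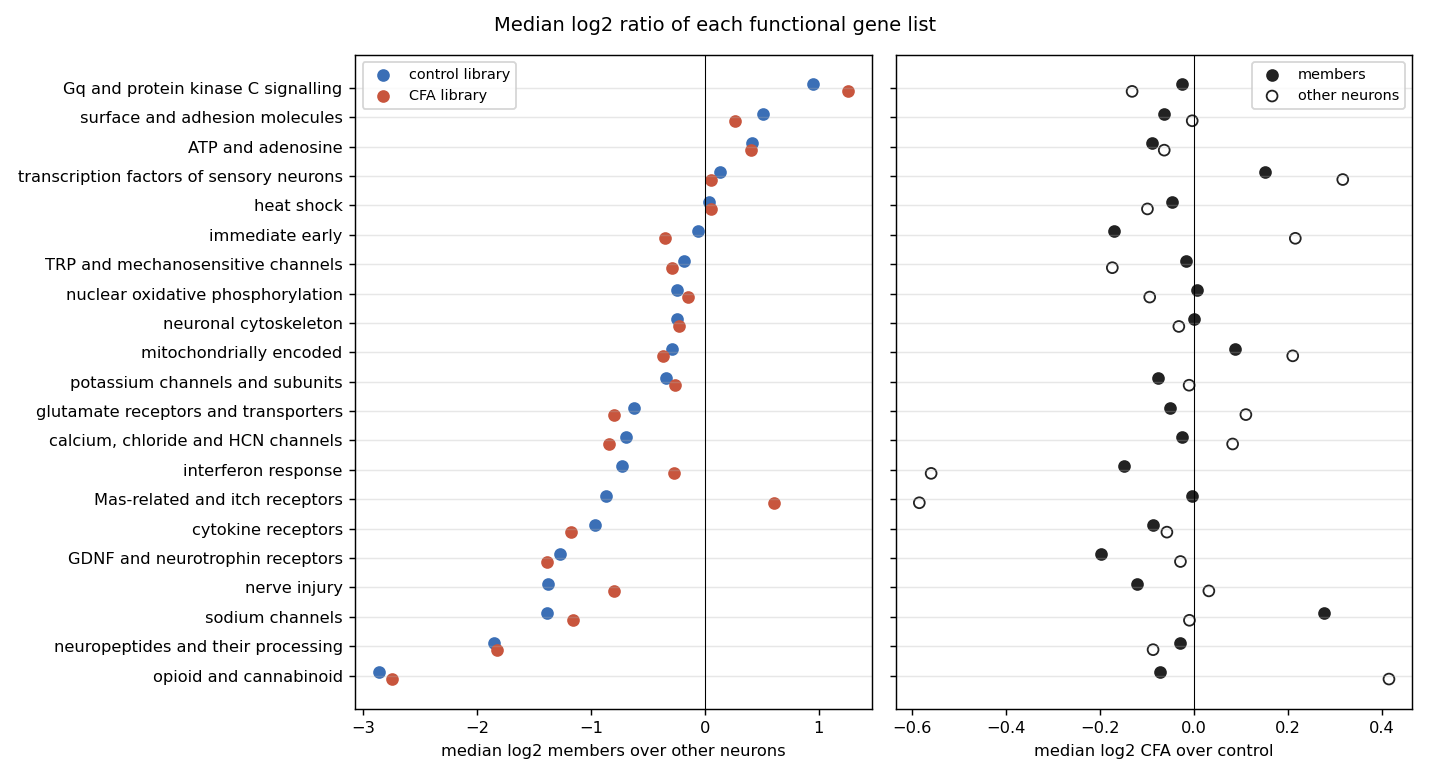
Median log2 ratio of each functional gene list, without the cell type markers and the genes the study names: on the left Mrgprd neurons (members) over other neurons in the control and CFA libraries, on the right CFA over control in members and in other neurons. Among the lists plotted, Gq and protein kinase C signalling has the highest left median in both libraries (0.95 and 1.26) and the opioid and cannabinoid list the lowest (-2.86 and -2.74); right medians of members stay between -0.20 and 0.28.

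The CFA comparison asks what inflammation of the whisker pad went along with in these neurons. Levels in Mrgprd neurons were alike in the 2 libraries for most genes. Of 9486 genes with at least 100 UMIs over Mrgprd neurons, 22 (0.232%) were at least 2-fold higher and 41 (0.432%) at least 2-fold lower in the CFA library, 92.5% lay within 0.5 of 0 on the log2 scale, and the median was -0.02. In other neurons, 10 of 9433 of these genes (0.106%) were higher and 39 (0.413%) lower, with a median of -0.01. In the following, the log2 ratio of CFA over control is given with its counting interval beside the ratio in other neurons.

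Some of the genes with the highest ratio had a like ratio in other neurons and others did not. Bc1, a short noncoding RNA of neurons, had 608 CPM in control and 1216 CPM in CFA Mrgprd neurons (log2 ratio 1.00, 0.95 to 1.05), beside 0.89 in other neurons. For mt-Co1, a subunit of cytochrome oxidase, the levels were 1383 and 2823 CPM (1.03, 0.99 to 1.06), beside 0.96. Lrrc17, a secreted leucine-rich repeat protein, had 19.0 and 55.8 CPM (1.55, 1.27 to 1.83), beside 1.40, and its median over single Mrgprd neurons was 11.9 CPM in control and 47.4 CPM in CFA. These 3 genes were higher in the CFA library in the Mrgpra3, Tafa4 and Tac1 neurons too. The same held for Gm10123 with 8.35 and 32.1 CPM (1.94, 1.55 to 2.35), beside 1.30.

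For Igfbp6, a binding protein of insulin-like growth factor II, the levels were 11.8 CPM in control and 40.0 CPM in CFA Mrgprd neurons (1.77, 1.42 to 2.11), beside -0.71 in other neurons. These UMIs came from few cells, 10 of 171 control and 10 of 65 CFA Mrgprd neurons, and 3 cells held 61.1% and 84.1% of them. Lypd1, of the Ly6 family, had 16.8 and 43.9 CPM (1.39, 1.08 to 1.69), beside -0.30, with UMIs in 57 of 171 and 29 of 65 cells. Hopx, a homeodomain protein without DNA binding, had 12.6 and 30.6 CPM (1.28, 0.92 to 1.65), beside 0.53, with 44.3% and 51.7% of the UMIs in 3 cells. Thus for Igfbp6 and Hopx a few neurons set the summed level. Clvs1, Tuba1c and Tmem100 completed the 10 highest, with ratios of 1.35, 1.05 and 1.00 (for Tuba1c -0.09 when cells were thinned to 5000 UMIs), beside 0.50, 0.05 and 0.12 in other neurons, and 3 cells held 53.8% and 59.5% of the Tmem100 UMIs.

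Genes with the lowest ratio were often lower in all neurons. The rows named Gm20721, Mir703 and mt-Ts1 had ratios of -2.19, -1.76 and -1.51, beside -2.23, -1.87 and -1.72 in other neurons, and for Mir703 the mature microRNA was not measured. Nme7, of the nucleoside diphosphate kinase family, had 29.0 CPM in control and 12.7 CPM in CFA Mrgprd neurons (-1.19, -1.65 to -0.75), beside -1.19. Fars2, a tRNA synthetase of mitochondria, had 84.8 and 33.9 CPM (-1.32, -1.59 to -1.06), beside -0.58, and its median over single cells was 78.5 CPM in control and 26.4 CPM in CFA. The gene was lower in the CFA library in Mrgpra3 neurons too, at 71.8 and 32.2 CPM. Cartpt, which encodes the CART peptide, had 66.6 and 28.3 CPM (-1.24, -1.54 to -0.95), beside -0.27. Its UMIs came from 86 of 171 and 27 of 65 cells, and 3 cells held 19.7% and 51.4% of them. Ppp1ccb and Dpm1 had ratios of -1.27 and -1.12, beside -0.67 and -0.56. Apoe of satellite glia had 62.0 and 20.4 CPM (-1.60, -1.96 to -1.27), beside -0.99. The satellite glia list had a median of -1.60 in Mrgprd neurons, beside -0.80, from 3 compared genes, and its summed level was 263 CPM in control and 203 CPM in CFA cells.

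**Figure D4:**
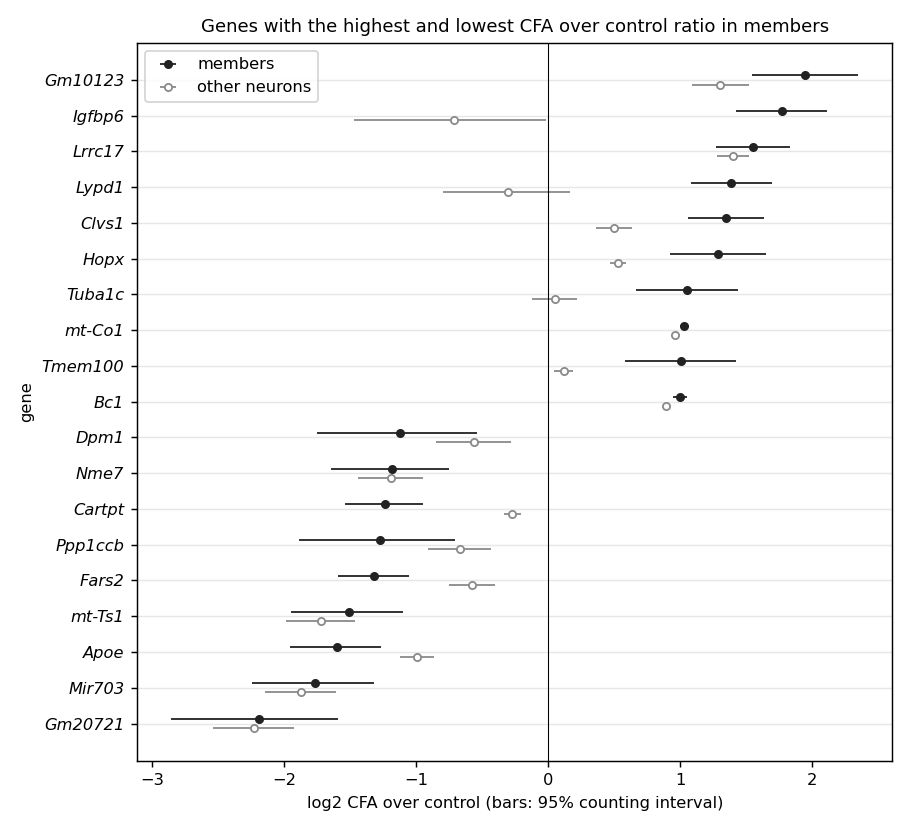
Log2 ratio of CFA over control CPM for the 10 genes at the high end and 9 of the 10 at the low end of the ranking by this ratio in Mrgprd neurons (members, filled) among genes with at least 200 UMIs there, with the ratio in other neurons (open); bars are 95% counting intervals. Igfbp6 and Lypd1 lie above 0 in members and below 0 in other neurons, while mt-Co1, Bc1, Lrrc17, Nme7 and Gm20721 lie close together in both.

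By functional list, cell type markers and the genes the study names aside, medians of CFA over control lay between -0.20 and 0.28 in Mrgprd neurons. The number of compared genes is given with each list. Counts of listed genes past the 2-fold limit, here and below, are to be read beside the shares of all genes. These shares were 0.232% higher and 0.432% lower in Mrgprd neurons, and 0.106% and 0.413% in other neurons. Immediate early genes had a median of -0.17 over 17 genes, beside 0.22 in other neurons. Dusp1, a phosphatase of this list that dampens MAP kinases, had 109 and 65.5 CPM (-0.74, -0.94 to -0.54), beside 0.23, and Nr4a1, a nuclear receptor induced by activity, had 30.5 and 15 CPM (-1.02, -1.45 to -0.62), beside -0.10. Fos had 508 and 437 CPM (-0.22, -0.30 to -0.14), beside 0.21. The difference between the groups of neurons was not tested. Interferon response genes had a median of -0.15 over 20 genes, beside -0.56 in other neurons. Of them, 1 (Rsad2, an antiviral enzyme) passed the 2-fold limit in Mrgprd neurons and 4 (Ifit3, Rsad2, Irgm2 and Tap1) in other neurons. Each was lower in the CFA library, and these counts were not tested against each other. Rsad2 had 11.7 and 5.61 CPM (-1.06, -1.78 to -0.40), beside -1.32. Sodium channel genes had a median of 0.28 over 12, beside -0.01, with 0 past the limit. The beta subunit gene Scn4b lay above 0 at 0.36 (0.02 to 0.69), beside -0.11, while Scn10a lay below at -0.34 (-0.41 to -0.26), beside -0.17.

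Transcription factors had a median of 0.15 over 26 genes, beside 0.32, with 2 at least 2-fold higher in Mrgprd neurons. These were Hopx and Etv1, the latter with 8.62 CPM in control and 21.2 CPM in CFA cells (1.30, 0.85 to 1.73), beside -0.11, and with 62.7% of its CFA UMIs in 3 cells. Runx1 was higher in both groups of neurons, with a ratio of 0.63 (0.53 to 0.73), beside 0.78. Mitochondrially encoded genes had a median of 0.09 over 9, beside 0.21, with mt-Co1 past the limit. Oxidative phosphorylation genes had 0.01 over 44, beside -0.09, with 0 past it. Potassium channels had -0.08 over 29, beside -0.01, TRP and mechanosensitive channels -0.02 over 14, beside -0.17, calcium, chloride and HCN channels -0.03 over 15, beside 0.08, and glutamate genes -0.05 over 7, beside 0.11.

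Neuropeptide genes had a median of -0.03 over 14, beside -0.09, with Cartpt past the limit, and Calca at -0.28 (-0.34 to -0.23), beside -0.29. Gq and protein kinase C genes had -0.03 over 23, beside -0.13, ATP and adenosine genes -0.09 over 8, beside -0.06, and GDNF and neurotrophin receptors -0.20 over 8, beside -0.03. Surface molecules had -0.06 over 24, beside -0.0038, with Lypd1 higher and Thy1 lower. The latter, a surface glycoprotein, had 8.35 CPM in control and 2.80 CPM in CFA Mrgprd neurons (-1.57, -2.63 to -0.67), from 93 and 11 UMIs, beside 0.07. Cytokine receptors had -0.09 over 10, beside -0.06, heat shock genes -0.05 over 16, beside -0.10, cytoskeleton genes -0.00027 over 13, beside -0.03, nerve injury genes -0.12 over 6, beside 0.03, and Mas-related and itch receptors, without Mrgprd, 0.0052 over 8, beside -0.42. The last value in other neurons goes with Agtr1a at -1.32 and Lpar3 at -0.64 there, in a library with a lower share of Mrgprd neurons and a lower share of other neurons with a Mrgprd UMI, and the part of stray RNA in it was not tested. Only 1 opioid and cannabinoid gene was compared, Cnr1, at -0.07, beside 0.41.

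The 14 genes that the study names for its NP1 neurons, some as markers and some for their response to CFA, had without Mrgprd a median of 0.29 in Mrgprd neurons, beside 0.38 in other neurons, with 1 of 13 past the 2-fold limit (mt-Co1). The study chose the list on these samples, so it is not independent evidence of a direction. Mmp25, a metalloproteinase anchored to the membrane, had 260 and 328 CPM (0.34, 0.24 to 0.43), beside 0.03. Arl6ip1 had 664 and 979 CPM (0.56, 0.50 to 0.62), beside 0.49, and Nap1l1, a histone chaperone, had 615 and 868 CPM (0.50, 0.44 to 0.56), beside 0.38. Against other neurons, Mrgprd left aside, 4 of 13 were at least 2-fold higher and 1 lower in each library, with medians of 0.13 and 0.14. P2ry1, which the study reports as expressed in its NP1, was lower than in other neurons in both libraries, with the levels given above. The study chose its NP1 cells by clustering, not by the rule used here.

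How much genes varied among single Mrgprd neurons could be read for few genes at equal depth. Counts were thinned to 5000 UMIs per cell, and for 5121 genes with at least 500 UMIs the variance of the thinned counts was set against their mean, a ratio of 1 being what counting alone gives. The median ratio was 1.06 for control and 1.04 for CFA cells, and 49 genes had at least 2 in both. The median gene had a mean of 0.409 and 0.415 UMIs per cell at this depth, and at so low a mean the ratio says little about the spread between cells. At 20000 UMIs the median ratio was 1.124 and 1.115, and 120 genes had at least 2 in both. Among the 10 most variable were mt-Nd1, mt-Nd4, mt-Cytb, mt-Rnr2, mt-Nd2, mt-Rnr1, mt-Co1 and mt-Nd5 of the mitochondrial genome, with Apod of glia and fibroblasts. For mt-Nd1 the ratio was 54.9 and 56.2, with 130 to 51776 CPM over control cells around a median of 4264 CPM. The greater depth leaves out the shallow cells and keeps 144 control and 58 CFA cells, and there 0 of the 10 remained among the 10 most variable genes.

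Peptide genes were among the most variable at the greater depth, where Calca ranked 2 and Tac1 ranked 4. Calca ran from 77.7 over a median of 928 to 9019 CPM in control cells, and from 66.6 over 584 to 6140 CPM in CFA cells, with variance ratios of 21.0 and 22.3 at 20000 UMIs. At least 3000 CPM were found in 7 of 171 and 2 of 65 cells, and under 500 CPM in 35 of 171 and 29 of 65. Cells low in Calca made up a greater share in the CFA library. Tac1 ran from 0 over 216 to 5691 CPM and from 0 over 178 to 2369 CPM. Calca and Tac1 tended to be high where Mrgprd was low, with Spearman's rho of -0.31 in control and -0.41 in CFA cells for Mrgprd with Calca, -0.39 and -0.55 for Mrgprd with Tac1, and 0.24 and 0.59 for Calca with Tac1, over 171 and 65 cells that share their library. These are shares of the same cell total, and they are given as a description.

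The 3 cells with the most Calca were also unlike most of the rest in other genes. They had 9019, 8131 and 6140 CPM of Calca (the first 2 control, the last CFA) and 859, 762 and 869 CPM of Gfra3, a gene without a UMI in most Mrgprd neurons, with UMIs in 40 of 171 control and 16 of 65 CFA cells. Their Cd24a was 617, 515 and 79.0 CPM, against medians of 4400 and 4212 CPM. Their Agtr1a was 0, and their Mrgprd was 161, 206 and 257 CPM, near the limit of the rule. Low Cd24a or an Agtr1a of 0 was not particular to these cells. Cd24a was 519 CPM in a control cell of 5777 UMIs and 616 CPM in a CFA cell of 16221 UMIs, and other Mrgprd neurons also lacked Agtr1a UMIs. In all, 3 control and 2 CFA cells had at least 500 CPM of Gfra3. Igfbp6 was at least 100 CPM in 7 control and 6 CFA cells, and the 3 highest, all CFA, had 617, 549 and 543 CPM beside 2158, 2305 and 1755 CPM of Calca.

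**Figure D5:**
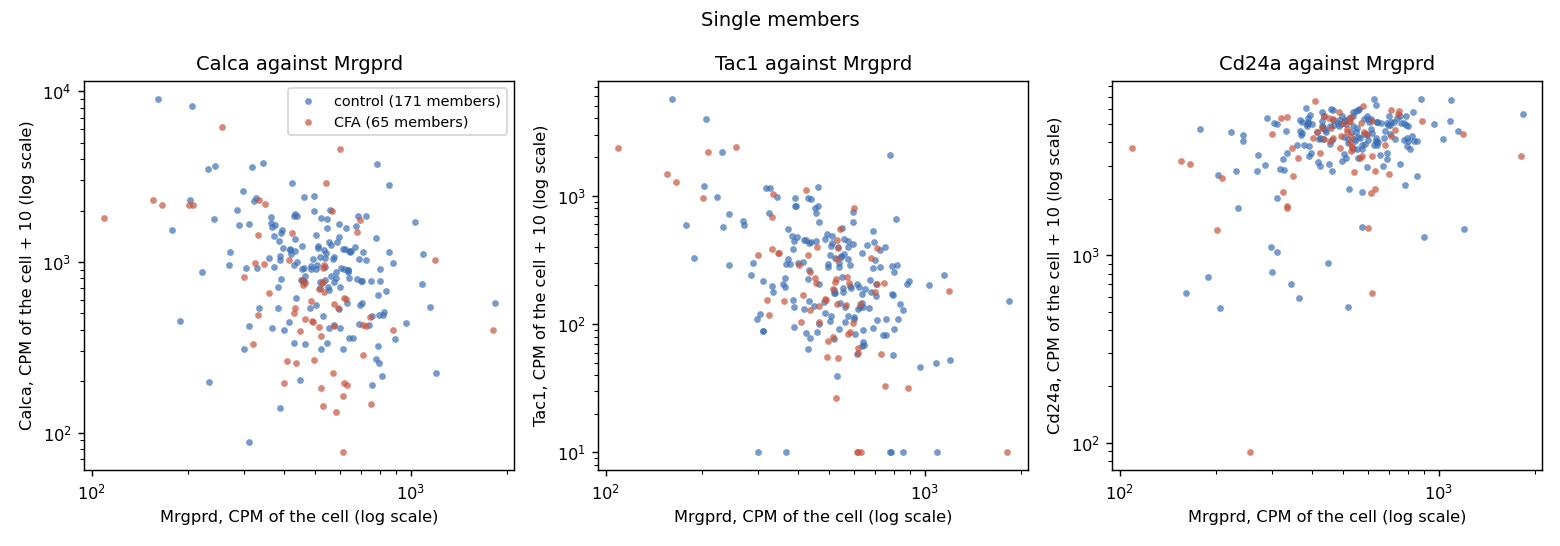
Level of Calca, Tac1 and Cd24a (CPM plus 10, log axis) against Mrgprd (CPM, log axis) in each of 171 control and 65 CFA Mrgprd neurons, 1 point per cell. The 3 cells with the highest Calca, which also have the highest Tac1, lie in the left part at 161 to 257 CPM of Mrgprd, and the CFA cell among them has 79.0 CPM of Cd24a against a CFA median of 4212 CPM.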

How the data were processed

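Single cells of right TGs were captured on the BD Rhapsody system in 1 control and 1 CFA library. The authors deposited UMI counts per gene and cell, not normalised. The submitters' processing notes name fastp and GRCm38, and the aligner and annotation were not given in the sources used here. Counts were read with Python 3.11.15, NumPy 2.4.6, SciPy 1.17.1 and pandas 2.3.3, and figures drawn with Matplotlib 3.10.9.

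Cells, neurons and Mrgprd neurons were chosen as stated in the report. Classes among the other neurons were taken in the order Mrgpra3 neurons (at least 3 UMIs and 100 CPM of Mrgpra3), Tafa4 neurons (the same limits for Tafa4, listed as Fam19a4 in older annotations) and Tac1 neurons (at least 3 UMIs and 1000 CPM). UMIs were summed per class and library and divided by the class total to give CPM, so deep cells weigh more. Intervals at 95% follow the exact Poisson method (CPM), that of Clopper and Pearson (shares) and the binomial method conditional on the summed UMIs (ratios), with counts of 0 set to a floor of 3. Genes needed at least 100 UMIs over the neurons of a library, or over the Mrgprd neurons of both libraries for CFA over control. Shares of cells with a UMI and variances were taken after thinning to 5000 UMIs. Thinning to 1000 UMIs and leaving Mrgprd out of its lists were added after seeing the data. Doublets were kept, and leaving out those that Scrublet (in Scanpy 1.11.5) scored above 0.25 was an alternative. The scripts were tested on simulated data.

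Genes named are the 5 markers, genes of 22 role lists (receptors, channels, signalling, peptides, transcription factors, stress and injury, and the genes the study names) and 14 marker lists, the 15 highest and 15 lowest by the smaller log2 ratio of the libraries, the 10 highest and 10 lowest for CFA over control with at least 200 UMIs over the Mrgprd neurons, and the 10 most variable with at least 500. The rule, lists and limits were chosen with earlier results of these data known. Some genes that this rule names are not reported here.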

Additional observations from a re-analysis of the deposited data

Results flagged for a closer look

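For 3 named genes with at least 100 UMIs over the Mrgprd neurons the log2 ratio of CFA over control passed 1 in size in Mrgprd neurons and had the opposite sign in other neurons, with counting intervals that left out 0 in both. The ratios were 1.30 for Etv1, beside -0.11, 1.77 for Igfbp6, beside -0.71, and -1.57 for Thy1, beside 0.07. The difference between the groups of neurons was not tested, since each condition had 1 library. The Etv1 UMIs came from 39 of 171 control and 19 of 65 CFA Mrgprd neurons, and the Thy1 UMIs from 64 and 10 of them.

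Outside the neuron rule or the filters, 14 cells held at least 3 Mrgprd UMIs, 10 control and 4 CFA cells. Of these, 9 were kept cells with under 5000 UMIs and 5 were left out by the filters on genes and mitochondrial UMIs.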

How the results depend on the processing

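No paired analysis was possible because each condition had 1 library, so no library was left out either. The share of Mrgprd neurons among neurons ran from 19.6% to 22.3% for control and from 14.4% to 17.3% for CFA over 7 other settings of the rule and filters. Of 720 repeats for the 15 highest and 15 lowest genes against other neurons, 648 stayed within the counting interval and 0 turned their sign. These genes were picked for the most extreme ratios in the same data, so a turn was unlikely from the start. Mrgprd and Mrgpra3, which the rule used, are among them. The other named genes were not repeated singly against other neurons. Of 240 repeats for the 20 genes ranked by CFA over control 226 stayed within it and 1 turned, Tuba1c with -0.09 when cells were thinned to 5000 UMIs (1.05 as reported). A turn of sign was counted only where the reported value was at least 1 in size. Under this limit 2 of 796 repeats of list medians turned, both for the cytokine receptors of CFA cells (-1.17 as reported). They had 0.129 at a minimum of 400 UMIs and 0.288 with cells thinned to 5000 UMIs, where fewer genes were compared. Turns of smaller medians were not counted. For example, Mas-related and itch receptors for CFA over control in Mrgprd neurons had -0.0044 with Mrgprd and 0.0052 without it.

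Counts past 2-fold moved with the number of UMIs behind each gene. Against 22 genes higher and 41 lower in CFA Mrgprd neurons as reported, there were 3 and 7 at a minimum of 400 UMIs, 52 and 115 at a minimum of 50, 2 and 17 with thinned cells, and 37 and 89 with each cell weighted equally. Against 341 genes higher and 1181 lower than in other neurons in both libraries, there were 202 and 527 at a minimum of 400 UMIs and 132 and 305 with thinned cells. Of the listed genes lower in both, 112 as reported, 66 and 46 were counted under these 2 settings. Genes with a variance of at least 2 times the mean numbered 120 at 20000 UMIs, against 49 at 5000. Without thinning, a UMI was seen in 95.32% of control and 87.69% of CFA Mrgprd neurons for Prkcq, in 99.42% and 98.46% for Lpar3 and likewise for Grik1, and in 91.23% and 86.15% for Agtr1a. At 1000 UMIs, a depth chosen after seeing the data, the shares were 19.88% and 12.31% for Prkcq, 43.86% and 40% for Lpar3, 52.63% and 56.92% for Grik1, and 15.2% and 7.692% for Agtr1a.

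The CFA values rest on 65 cells of 1 library, intervals cover counting error only, and genes under 100 UMIs were not compared. How mice differ within a condition cannot be read from these data, and neither the effect of CFA nor of capture, dissection or animal can be told apart from the library.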
